A study of Homo sapiens with 6 samples.

Results

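RNA helicases of the DEAD-box (DDX) and DEAH-box (DHX) families were followed in Huh7 cells, a line of human hepatocellular carcinoma cells, after 24 h with carfilzomib or with its solvent DMSO. The members are all rows of the deposited gene table whose symbol starts with DDX or DHX and a digit, without hyphenated names and without pseudogene names ending in P. This gave 51 of 19021 rows, of which 50 are protein-coding genes in the NCBI RefSeq gene table (36 DDX and 15 DHX symbols in all) and 1, DDX3ILA1, is a long noncoding RNA that carries a DDX name. The cells are labelled wild type. The DMSO group and the carfilzomib group have 3 RNA-seq libraries each, and no dose is named in the labels. The labels also do not tell whether replicate libraries stem from separate cultures, and the spread that p-values measure here may therefore be technical. Carfilzomib inhibits the proteasome, the protease complex that degrades ubiquitin-tagged proteins.

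DDX and DHX proteins use ATP to unwind RNA duplexes or to strip proteins from RNA. They share a core of helicase motifs, after one of which, with the amino acids DEAD or DEAH, the families are named. Single members act at defined steps, among them spliceosome remodelling, maturation of ribosomal RNA in the nucleolus, export of mRNA through the nuclear pore, translation initiation, mRNA decay and the sensing of viral RNA. In liver cells, as elsewhere, most of them serve these general steps, and a few are germ-line genes or interferon-inducible genes.

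The library totals behind the values were 38386581 to 39651170 reads. The tested helicase genes had 310 to 27639 reads in a library, so counting error was small for most of them. All 10 hepatocyte markers had a mean above 1 FPKM (fragments per kilobase of gene, scaled to library size), and their summed level was 9725 to 9899 FPKM with DMSO and 4124 to 4263 with carfilzomib. Of 8 markers of blood, endothelial, stromal and bile duct cells, 7 were in the table. PTPRC, VWF, ACTA2 and KRT7 had means under 0.2 FPKM in both groups, and COL1A1 had means of 0.368 and 0.523 with DMSO and carfilzomib. CD68 had means of 33.2 and 46.9 FPKM and PECAM1 of 3.94 and 2.58. The part of these marker shifts in the helicase results was not tested. In bulk RNA, fewer cells of a kind and less RNA per cell cannot be told apart. The second principal component, with 1.22% of the variance, set DMSO replicate 1 off from the rest of its group. Of the 48 tested helicase genes, 16 were higher and 14 lower in it than in both other DMSO libraries, and the like counts were 13 and 19 for DMSO replicate 2 and 19 and 15 for DMSO replicate 3. Over all 11153 genes, 3465 were higher and 4667 lower in DMSO replicate 1.

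Most tested helicase genes differed between the groups, as did most genes tested. The helicase genes differed more often upward than downward. Of 51 members, 48 passed the filter of a mean of at least 1 FPKM, and limma called 27 higher and 12 lower with carfilzomib (adjusted p under 0.05, Benjamini-Hochberg over all 11153 genes tested). Among all genes tested, 36.7% were called higher and 44.9% lower, and among the helicase genes 56.2% were higher and 25% lower. The median difference was 0.22 for the helicase genes and -0.07 for all genes tested, both in log2(FPKM + 1), a scale that shrinks changes of genes with low levels. The changes were moderate. No member (0) differed by 1 or more on this scale, where 13.1% of all genes were called and did. The groups did not overlap in 39 of the 48 (81.2%), against 82.8% of all genes tested. FPKM summed over all 51 members was 1185, 1169 and 1171 in the DMSO libraries and 1409.9, 1416 and 1399 in the carfilzomib libraries, a ratio of 1.20. Every carfilzomib sum lay above every DMSO sum. With 3 against 3 libraries an exact permutation test (two-sided) cannot go below 0.1, and it gave p = 0.1.

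The number of lower calls depends on how libraries are scaled. With median-of-ratios scaling 30 members were higher and 6 lower, so that 83.3% of the called members were higher against 69.2% as reported, and after rescaling to TPM 27 were higher and 7 lower (79.4%). The share also moved up for all genes tested, where 45% of the called genes were higher as reported, 51.3% with median-of-ratios scaling and 47.7% with TPM. The 6 members that lost their lower call with median-of-ratios scaling were DDX28, DDX19A, DDX41, DDX42, DHX29 and DHX9. Without the library that lay apart, DMSO replicate 1, 27 were higher and 10 lower. Between the name groups, 19 of 33 DDX genes tested were higher (57.6%) and 10 lower (30.3%). Of 15 DHX genes, 8 were higher (53.3%) and 2 lower (13.3%). The shares of all genes tested were 36.7% higher and 44.9% lower.

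**Figure D1:**
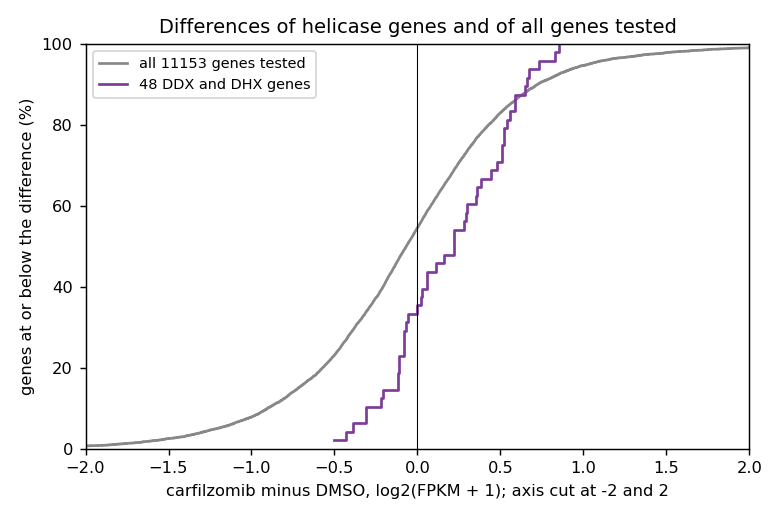
Cumulative share of genes (vertical axis, %) at or below each carfilzomib minus DMSO difference (horizontal axis, log2(FPKM + 1)), for the 48 tested DDX and DHX genes and for all 11153 genes tested. The helicase curve lies to the right of the other around 0 (medians 0.22 and -0.07) and ends at -0.50 and 0.85, while all genes tested run from -3.57 to 7.45, past the ends of the axis.

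The short stretches of DNA before the transcription start of 4 members are shown because the members moved in different directions and hold the motifs described below. They are the 250 bases before the start in RefSeq (build GRCh38.p14), 5′ to 3′ on the gene's own strand. Capitals mark the motifs found, an ETS-factor element and an E-box in DDX31, a pair of interferon-stimulated response elements in DDX60L, an ETS element read on the other strand in DDX46, and an NRF1 element in DDX11. DDX31 and DDX60L rose, and DDX46 and DDX11 fell. For DDX31 and DDX11 this is the first of 3 and of 2 starts in the table.
DDX31, chr9:132669984-132670233, minus strand: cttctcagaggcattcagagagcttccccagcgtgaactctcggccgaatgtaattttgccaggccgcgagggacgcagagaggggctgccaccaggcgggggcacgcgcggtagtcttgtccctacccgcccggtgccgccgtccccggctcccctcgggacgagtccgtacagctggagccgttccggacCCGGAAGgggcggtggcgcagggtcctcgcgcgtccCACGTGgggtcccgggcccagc
DDX60L, chr4:168480493-168480742, minus strand: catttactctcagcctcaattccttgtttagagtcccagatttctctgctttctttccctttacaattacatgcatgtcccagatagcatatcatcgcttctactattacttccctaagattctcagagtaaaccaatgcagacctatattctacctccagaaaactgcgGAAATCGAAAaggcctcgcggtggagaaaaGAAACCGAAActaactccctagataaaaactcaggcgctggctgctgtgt
DDX46, chr5:134758529-134758778, plus strand: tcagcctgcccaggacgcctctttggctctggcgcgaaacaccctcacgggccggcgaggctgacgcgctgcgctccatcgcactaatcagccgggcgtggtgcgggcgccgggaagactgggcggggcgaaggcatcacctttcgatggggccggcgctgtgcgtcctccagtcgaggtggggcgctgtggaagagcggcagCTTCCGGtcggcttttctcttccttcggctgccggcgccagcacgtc
DDX11, chr12:31073610-31073859, plus strand: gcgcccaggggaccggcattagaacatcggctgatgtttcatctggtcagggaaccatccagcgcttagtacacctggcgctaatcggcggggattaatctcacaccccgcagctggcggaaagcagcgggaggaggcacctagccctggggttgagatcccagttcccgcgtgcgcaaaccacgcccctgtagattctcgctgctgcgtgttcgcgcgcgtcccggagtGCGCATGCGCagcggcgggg

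A RefSeq promoter was found for 46 of the 51 members, and 6 motifs were searched on both strands of the 250 bases. Each gene entered with its first listed start. For 39 of the 46, bases 31 to 50 after that start occurred in a transcript of the gene. The ETS element CCGGAAG was in 14 of the 46 (30.4%), against 8.82% of 27305 promoters of all kinds of genes. These 27305 were not limited to genes expressed in Huh7 cells, so they are not a like background for the members. Its holders include members that rose (DDX1, DDX5, DDX21, DDX31, DDX56, DHX16, DHX38, DHX57), members that fell (DDX46, DDX50, and DDX19A and DDX42, whose lower calls were lost with median-of-ratios scaling, where DDX42 had a difference of 0.01) and members without a call (DHX8, DHX30). The E-box CACGTG was in 7 (15.2%, against 6.49%) and the CNC-factor element TGACNNNGC in 6 (13.0%, against 11%). The NRF1 element, read as GCGCA, N and GCGC, was in DDX10, DDX11 and DHX34 (6.52%, against 5.53%). The heat shock element GAANNTTC was in 0 of the 46, against 5.85% of all promoters. The interferon-stimulated response element, read as GAAA, NN and GAAA, was in DDX60, DDX60L and DHX15 (6.52%, against 3.07%). In DDX60L its copies begin 80 and 50 bases before the start. A match is a description of letters and shows no binding.

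Of the 17 members that act in ribosome biogenesis, 10 rose, 4 fell and 3 had no call, although the lower call of DDX28 was lost with median-of-ratios scaling. Their shares of 58.8% higher and 23.5% lower were close to those of the whole family (56.2% and 25%), beside 36.7% and 44.9% of all genes. Their summed FPKM was 368, 361 and 362 with DMSO and 489.6, 489.9 and 481 with carfilzomib, without overlap. DDX47, the human counterpart of yeast Rrp3 in pre-ribosomal RNA processing, had 23.0, 22.3 and 23.7 FPKM with DMSO and 42.0, 43.9 and 40.8 with carfilzomib. Its log2 difference was 0.85 (SE 0.0384, limma adjusted p = 1.78e-08), the largest among the tested members on the log2(FPKM + 1) scale. The order of the top members depends on the scale, since the FPKM ratio was 1.84 for DDX47 and 1.87 for DDX60L, limma-voom gave DDX60L 0.91 and DDX47 0.88, and quantile normalization gave DDX43 0.85 and DDX47 0.83. DDX27, a nucleolar helicase of ribosomal RNA maturation, had 38.4, 39.7 and 38.7 FPKM with DMSO and 69.0, 68.5 and 72.0 with carfilzomib (log2 difference 0.83, SE 0.0321, limma adjusted p = 6.20e-09). Both genes had groups far apart relative to the spread within a group. DDX31, another nucleolar helicase, went from 3.55, 3.31 and 3.61 to 5.91, 6.45 and 6.00 FPKM, again without overlap. DHX37, a DEAH-box helicase that works on the precursor of the small ribosomal subunit, went from 10.3, 11 and 10.2 to 16, 15.5 and 17.2 FPKM. The log2 differences of DDX31 and DHX37 were 0.67 and 0.59.

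DDX47 carries a limit of annotation. In GENCODE v29, 99.7% of the 50-base words of its longest coding transcript also occur in a transcript assigned to APOLD1. The level of APOLD1 itself was near 0 in both groups, 0.410 ± 0.0833 FPKM in DMSO libraries and 0.497 ± 0.216 in carfilzomib libraries (SD, n = 3). The rule by which shared reads were assigned is not stated in the labels. DDX27 and DDX31 shared none (0.00%) of their words with another gene.

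The other nucleolar members that rose are DDX49, DDX56, DDX24, DDX55 and DDX51, whose yeast counterparts act in assembly of the ribosomal subunits, and DDX21, which acts in transcription and processing of ribosomal RNA. Their log2 differences were 0.56, 0.51, 0.36, 0.35, 0.29 and 0.44. DDX49 had 35.6 ± 0.723 FPKM with DMSO and 52.9 ± 1.69 with carfilzomib, and DDX56 had 47.0 ± 1.96 and 67.5 ± 3.04 (SD, n = 3). DDX18, DDX10 and DHX33, which also act on ribosomal RNA, had no call, with DDX18 at 41.3 ± 1.05 and 41.4 ± 0.407 FPKM. Without carfilzomib replicate 2, DDX10 was called lower (log2 difference -0.12, limma adjusted p = 0.0421), and with median-of-ratios scaling DHX33 was called higher (0.14, adjusted p = 0.0237) as was DDX18 (0.09, adjusted p = 0.0251).

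Among the members of this group that fell, DDX50, a close relative of DDX21, had 4.47, 4.54 and 5.16 FPKM with DMSO and 3.73, 3.56 and 3.56 with carfilzomib. DDX54 had 23.1, 23.1 and 24.7 FPKM with DMSO and 19.5, 20 and 20.8 with carfilzomib. DDX52 had 11.4, 11.3 and 11 FPKM with DMSO and 9.46, 10.1 and 9.15 with carfilzomib. In all 3 genes every carfilzomib value lay below every DMSO value, with log2 differences of -0.31, -0.22 and -0.21. DDX28, which acts in assembly of the mitochondrial ribosome, had 6.81, 5.37 and 5.69 FPKM with DMSO and 5.32, 4.90 and 3.73 with carfilzomib. Its groups almost touched, at 5.37 and 5.32 FPKM, and its log2 difference was -0.31 (SE 0.110, limma adjusted p = 0.0257). DDX28 was no longer called when DMSO replicate 1 (log2 difference -0.22) or carfilzomib replicate 3 (-0.18) was left out, and the adjusted p ranged from 0.00650 to 0.166 over 17 alternatives.

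**Figure D2:**
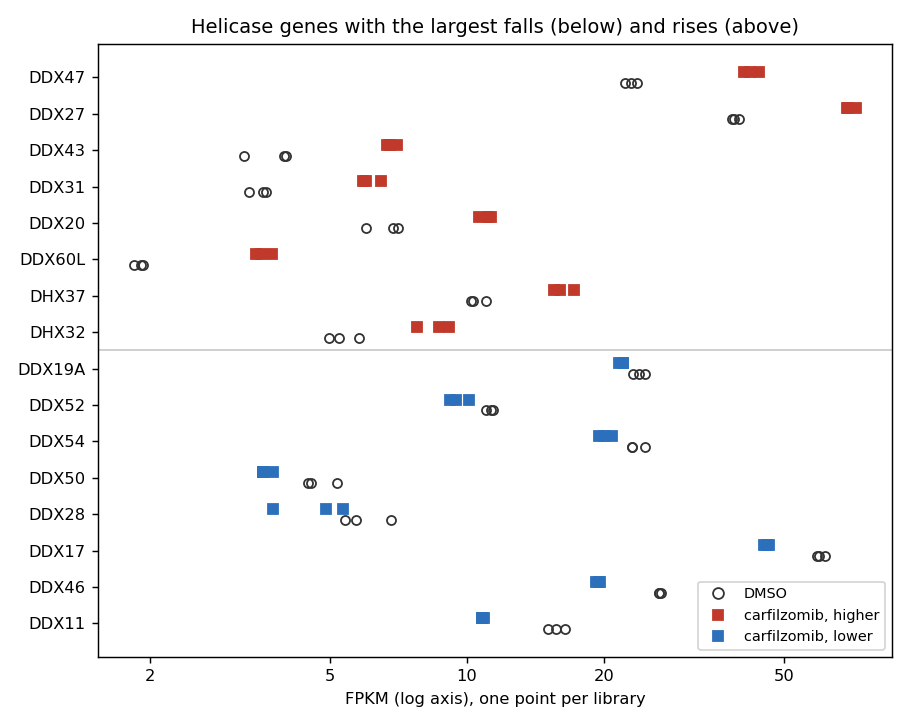
FPKM on a log axis in each of the 6 libraries for the 8 members with the largest called rises (upper rows) and the 8 with the largest called falls (lower rows), with open circles for DMSO and filled squares for carfilzomib. The groups do not overlap in any of the 16 rows, and DDX28 comes closest, at 5.37 FPKM for its lowest DMSO and 5.32 for its highest carfilzomib library.

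Splicing helicases were split much like the whole family. Among 11 tested members 6 rose (54.5%), 3 fell (27.3%) and 2 had no call. The whole family had 56.2% higher and 25% lower, and all genes tested 36.7% and 44.9%. Of the 3 that fell, only DDX46 kept its lower call under every alternative run. DDX41 lost it with median-of-ratios scaling and TPM, as did DDX42, whose difference turned to 0.01 with the former. DDX20, also called Gemin3, a subunit of the SMN complex that loads spliceosomal small nuclear RNAs, had 6.87, 5.98 and 7.04 FPKM with DMSO and 10.6, 11.1 and 11.3 with carfilzomib. Its log2 difference was 0.66 (SE 0.0594, limma adjusted p = 3.06e-06). DDX23, the counterpart of yeast Prp28, averaged 37.7 ± 1.66 FPKM in DMSO libraries and 54.5 ± 1.48 in carfilzomib libraries (SD, n = 3). DDX39A, which acts in splicing and mRNA export, had 37.3 ± 2.35 and 52.5 ± 3.70 FPKM. Its close relative DDX39B was not analysed here, and the transcript of DDX39A shared none (0.00%) of its 50-base words with another gene.

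The DEAH-box remodelling enzymes of the spliceosome rose in part. DHX16, DHX38 and DHX15, the counterparts of yeast Prp2, Prp16 and Prp43, rose by 0.30, 0.28 and 0.22 on the log2 scale, and DHX15 was the second most abundant member with DMSO (96.3 ± 2.21 FPKM, SD, n = 3). DHX8, the counterpart of Prp22, had 8.98 ± 0.575 FPKM with DMSO and 8.57 ± 0.189 with carfilzomib, without a call (limma adjusted p = 0.297). DHX35 had 6.38 ± 0.890 and 6.65 ± 0.0423 FPKM, also without a call, and was called higher without DMSO replicate 2 (log2 difference 0.16, limma adjusted p = 0.0247).

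DDX46, the counterpart of yeast Prp5 in recognition of the branch site, had 26.5, 26.7 and 26.4 FPKM with DMSO and 19.6, 19.2 and 19.5 with carfilzomib. Each group spanned less than 1 FPKM, and the log2 difference was -0.43 (SE 0.0317, limma adjusted p = 6.60e-07). DDX41, a helicase of the late spliceosome that is mutated in myeloid leukaemias, had 25 ± 0.440 and 23.0 ± 1.17 FPKM (SD, n = 3). Its log2 difference was -0.11, and leaving out DMSO replicate 1 (-0.11), DMSO replicate 3 (-0.11) or carfilzomib replicate 2 (-0.07) ended the call. DDX42, which associates with the U2 particle, had 30.4 ± 0.640 and 28.7 ± 0.301 FPKM. Its call (log2 difference -0.08) held without DMSO replicate 1 and was lost when any of the other 5 libraries was left out (-0.09 to -0.07).

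**Figure D3:**
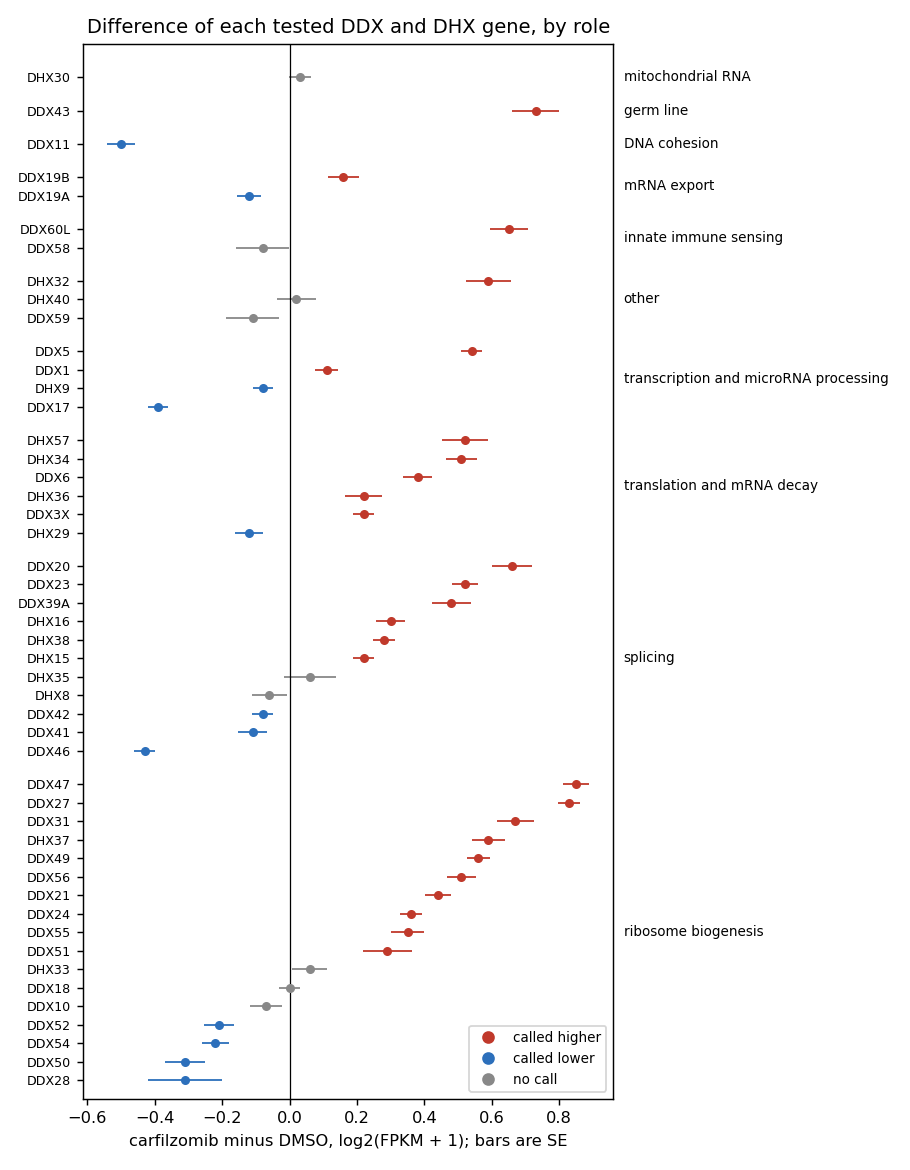
Carfilzomib minus DMSO difference (horizontal axis, log2(FPKM + 1), bars are SE from limma) of the 48 tested members, grouped by role, with called rises in red, called falls in blue and members without a call in grey. In each role with 3 or more tested members the differences lie on both sides of 0, and ribosome biogenesis spans from -0.31 to 0.85; the blue points of DDX42 and DHX9 turned to 0.01 with median-of-ratios scaling.

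Of 6 tested helicases of translation and mRNA decay, 5 were called higher and 1 lower, where 36.7% of all genes were higher and 44.9% lower. The count covers few genes and has no test of its own. DDX3X, a helicase of translation initiation on structured mRNAs, had 72.3, 71.8 and 72.0 FPKM with DMSO and 82.3, 87.5 and 83.4 with carfilzomib (log2 difference 0.22, SE 0.0311, limma adjusted p = 7.49e-05). DDX6, which works with the decapping complex in P-bodies, had 18.6, 19.3 and 20.3 FPKM with DMSO and 25.8, 26.6 and 24.6 with carfilzomib (log2 difference 0.38). Neither gene had overlapping groups. DHX57 and DHX34, of which the latter acts in nonsense-mediated decay, rose by 0.52 and 0.51 on the log2 scale, and DHX36, which unwinds G-quadruplexes, by 0.22. DHX29, which helps the small ribosomal subunit scan structured leaders, had 15.1 ± 0.499 and 13.9 ± 0.384 FPKM (SD, n = 3). Its lower call (log2 difference -0.12, limma adjusted p = 0.0224) was lost without DMSO replicate 2 (-0.10), without carfilzomib replicate 1 (-0.10), and with median-of-ratios scaling (-0.03), TPM (-0.08) and quantile normalization (-0.08).

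In all 3 pairs of close relatives compared, 1 gene was called higher and the other lower, although the lower call of DDX19A was lost with median-of-ratios scaling and TPM. The pairs are a short chosen list, and the count of opposite calls has no test of its own. DDX5 and DDX17, also known as p68 and p72, are coregulators of transcription and cofactors of the microRNA-processing enzyme Drosha. DDX5, the most abundant member with DMSO, had 100.2, 97.1 and 98.2 FPKM with DMSO and 139, 145 and 146 with carfilzomib (log2 difference 0.54, SE 0.0300, limma adjusted p = 8.11e-08). DDX17 had 59.7, 58.9 and 61.3 FPKM with DMSO and 46.2, 45.7 and 45 with carfilzomib (log2 difference -0.39, SE 0.0300, limma adjusted p = 9.54e-07). The ratio of DDX5 to DDX17 was thus 1.68, 1.65 and 1.6 in the DMSO libraries and 3.01, 3.18 and 3.26 in the carfilzomib libraries.

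DDX21 and DDX50 lie on the same chromosome (10) and encode nucleolar relatives. DDX21 had 73.7, 72.3 and 70.6 FPKM with DMSO and 102, 100.3 and 93.3 with carfilzomib, while DDX50 fell as given above. Their FPKM ratio went from 16.5, 15.9 and 13.7 to 27.4, 28.2 and 26.2. DDX19A and DDX19B, the counterparts of yeast Dbp5 that release mRNA at the nuclear pore, are both on chromosome 16. DDX19A had 23.2, 24.6 and 23.9 FPKM with DMSO and 22.1, 22.1 and 21.6 with carfilzomib, and DDX19B had 8.07, 8.83 and 8.49 and then 9.28, 9.81 and 9.66. The groups overlapped in neither gene, and the ratio of DDX19A to DDX19B went from 2.87, 2.78 and 2.81 to 2.38, 2.25 and 2.24.

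In each pair the ratios of the groups did not overlap. The change of the log2 ratio of FPKM + 1 was 0.93 for DDX5 to DDX17, 0.75 for DDX21 to DDX50 and -0.28 for DDX19A to DDX19B. The permutation test (exact, two-sided) gave its smallest possible p of 0.1 for each pair, and 0.1 after adjustment over the 3 pairs. For DDX19A, the lower call (log2 difference -0.12, limma adjusted p = 0.0107) did not hold with median-of-ratios scaling (-0.03, limma adjusted p = 0.445) or TPM (-0.08, limma adjusted p = 0.0852), and its adjusted p lay between 0.00664 and 0.445 over 17 alternatives. Of the 50-base words of the longest coding transcript, 62.2% in DDX19A and 40.8% in DDX19B occurred in other genes of GENCODE v29. AC012184.2 alone held the same 62.2% and 40.8%. DDX19A and DDX19B also shared words with each other, in a share not given here, so the reads of both are uncertain. DDX5, DDX17 and DDX21 shared none (0.00%) of theirs, and DDX50 shared 10.3%, among others with its pseudogenes.

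**Figure D4:**
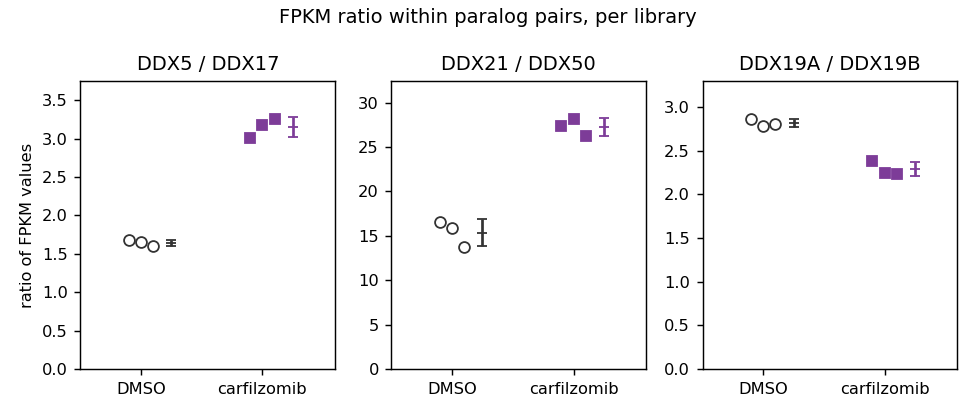
Ratio of FPKM values within 3 pairs of related genes in each library (vertical axis), with DMSO as circles, carfilzomib as squares and the mean ± SD of 3 libraries beside them. The ratio of DDX5 to DDX17 rises from at most 1.68 to at least 3.01, that of DDX21 to DDX50 from at most 16.5 to at least 26.2, and that of DDX19A to DDX19B falls from at least 2.78 to at most 2.38.

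The other members of transcription and RNA processing changed less. DDX1, a subunit of the tRNA ligase complex, had means of 52.4 ± 1.5 and 56.5 ± 1.43 FPKM in the DMSO and carfilzomib groups (SD, n = 3). Its log2 difference of 0.11 lost the call without DMSO replicate 3 (0.09), without carfilzomib replicate 3 (0.09) and with quantile normalization (0.06). DHX9, RNA helicase A, had 57.1 ± 0.413 and 54.1 ± 1.20 FPKM. Its log2 difference was -0.08 (limma adjusted p = 0.0344) and turned to 0.01 with median-of-ratios scaling. Leaving out DMSO replicate 2 (-0.08), DMSO replicate 3 (-0.07), carfilzomib replicate 2 (-0.08) or carfilzomib replicate 3 (-0.06) ended the DHX9 call as well. DHX30, a helicase of mitochondrial RNA granules, had 26.1 ± 0.648 and 26.6 ± 0.272 FPKM without a call, and was called higher with median-of-ratios scaling (0.11, adjusted p = 0.0114).

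The largest fall among the tested members was in DDX11, a helicase that acts on DNA in sister chromatid cohesion. DDX11 had 15.7, 15.1 and 16.4 FPKM with DMSO and 10.9, 10.8 and 10.8 with carfilzomib, and its log2 difference was -0.50 (SE 0.0407, limma adjusted p = 1.38e-06). All carfilzomib libraries lay below all DMSO libraries. Of the 50-base words of DDX11, 42.4% occur in other genes of GENCODE v29, among them its pseudogene DDX12P, so its reads are uncertain.

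The 3 members placed under RNA sensing here were lowly expressed. DDX58, which encodes the cytosolic viral RNA sensor RIG-I, had 2.14, 1.78 and 2.35 FPKM with DMSO and 2.03, 1.93 and 1.80 with carfilzomib, overlapping groups without a call (limma adjusted p = 0.376). DDX60L, an interferon-inducible gene, had 1.85, 1.93 and 1.91 FPKM with DMSO and 3.71, 3.42 and 3.52 with carfilzomib. Its log2 difference was 0.65 (SE 0.0565, limma adjusted p = 2.22e-06), and its groups lay far apart. DDX60, its neighbour on chromosome 4 and also interferon-inducible, did not pass the filter, with 0.363, 0.365 and 0.242 FPKM with DMSO and 0.192, 0.247 and 0.213 with carfilzomib, where the groups overlap. Without a filter its log2 difference was -0.12 (limma adjusted p = 0.0693). DDX60 and DDX60L shared under 1% of their 50-base words. DHX58 was not analysed here.

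Both members that are otherwise known from the germ line and from tumours (cancer/testis genes) had low levels. DDX43 had 3.99, 3.96 and 3.22 FPKM with DMSO and 6.77, 6.67 and 7.00 with carfilzomib (log2 difference 0.73, SE 0.0697, limma adjusted p = 4.56e-06). DDX53 did not pass the filter, with 0.182, 0.313 and 0.320 FPKM and then 0.815, 0.632 and 0.972. Behind these values are 26, 45 and 46 reads with DMSO and 116, 88 and 138 with carfilzomib, and the groups did not overlap. Without a filter DDX53 was called higher (log2 difference 0.50, limma adjusted p = 0.00136). The noncoding RNA DDX3ILA1 had 3 to 32 reads in a library and was not tested.

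The last 3 members have no role assigned here. DHX32 had 4.96, 5.21 and 5.79 FPKM with DMSO and 7.77, 8.65 and 9.12 with carfilzomib, without overlap (log2 difference 0.59, SE 0.0678, limma adjusted p = 1.90e-05). DHX40 had 7.12 ± 0.604 and 7.22 ± 0.158 FPKM (SD, n = 3) without a call, and 24.5% of its 50-base words occur in a pseudogene. DDX59 had 5.82 ± 0.291 and 5.35 ± 0.694 FPKM without a call, and was called lower without carfilzomib replicate 2 (log2 difference -0.18, limma adjusted p = 0.0452). With quantile normalization DHX40 was called higher (0.14, adjusted p = 0.0377).

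Differences of the 48 tested members had a Spearman rho of -0.20 with gene length and of -0.08 with the DMSO level, where all points come from the same 6 libraries. Over 11139 tested genes with a length, rho was 0.01 and -0.07. Of 10 helicase genes under 3000 bases, 8 were higher and 2 lower, against 35.8% and 44.9% of all genes of that length. From 3000 to under 5000 bases 11 of 23 helicase genes were higher and 6 lower, against 38.6% and 45.1% of all genes of that length. From 5000 bases on, 8 of 15 were higher and 4 lower, against 35.9% and 44.9%. Chromosome 12 held 7 members and chromosome 17 held 6. Those on chromosome 12 include DDX47, which rose, and DDX11, which fell.

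RNA helicases outside the DDX and DHX names were also mixed, with more genes called higher than lower. Of 20 tested, 10 were higher and 5 lower, with a median difference of 0.09. For all genes tested, 36.7% were higher and 44.9% lower, with a median difference of -0.07. The count of these helicases has no test of its own. IGHMBP2, a helicase mutated in a motor neuron disease, had 6.87 ± 0.157 and 20 ± 0.873 FPKM in the DMSO and carfilzomib groups (SD, n = 3), and MOV10, an RNA helicase that restrains retroelements, had 17.3 ± 0.106 and 9.0 ± 0.273. EIF4A3, the helicase of the exon junction complex, was higher (37.9 ± 3.32 and 58.3 ± 2.24 FPKM), as was EIF4A2, a helicase of translation initiation (147 ± 2.53 and 188 ± 4.50). Both were named after their values were seen. IFIH1, the RNA sensor MDA5, had 1.5 ± 0.223 and 1.25 ± 0.202 FPKM without a call.

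Cofactors that activate or recruit DDX and DHX proteins were counted in the same fit. There 36.7% of all genes tested were higher and 44.9% lower, with a median difference of -0.07. G-patch proteins, which stimulate DEAH-box helicases, were higher in 12 of 20 cases and lower in 4, with a median difference of 0.29. The ends were GPATCH3 (14.3 ± 0.287 and 28.5 ± 0.652 FPKM) and CMTR1, a cap methyltransferase (10.1 ± 0.540 and 7.05 ± 0.103, SD, n = 3). Of 11 genes of the eIF4F and exon junction complexes, 3 were higher and 3 lower, from EIF4H (a difference of 0.46) to EIF4G3 (-0.68). Decapping and deadenylation partners of DDX6 had 4 higher and 6 lower of 17, from LSM1 (0.55) to PATL1 (-0.51). Of 14 mRNA export partners, 5 were higher and 7 lower, from the export receptor NXF1 (0.77) to THOC6 (-0.64).

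In the pathway around the RNA sensors, 6 of 12 tested genes were called higher and 6 lower. Most genes were called in any case, since 2057 of all 11153 genes tested had no call. RIOK3, a kinase, had 21.6 ± 0.243 and 57.0 ± 1.5 FPKM (SD, n = 3), and IKBKE, a kinase downstream of the sensors, had 9.97 ± 0.484 and 3.89 ± 0.372. Of 13 genes of the RNA exosome, which nuclear helicases feed with substrates, 5 were higher and 5 lower, from EXOSC4 (a difference of 0.73) to EXOSC8 (-1.05). The partner lists were read only as counts beside the 36.7% higher and 44.9% lower of all genes tested.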

How the data were processed

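RNA was measured in 6 libraries of Huh7 cells. Per the labels' protocols, they were made from total RNA with a stranded mRNA kit. The authors deposited 1 table of FPKM values, and per the submitters' processing notes the tools were HISAT2, HTSeq, DESeq2, fastp and R 3.2.0, listed without role or order, and the build was GRCm39, which is a mouse build. The rows carry human symbols, so no coordinates were taken from the table. Reads were recovered from ratios between libraries (19017 of 19021 rows whole, to a relative tolerance of 1e-12).

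Genes were tested if they averaged 1 FPKM or more over the 6 libraries, with limma 3.58.1 in R 4.3.3 (lmFit, eBayes with trend, two-sided) on log2(FPKM + 1), and Benjamini-Hochberg adjustment ran over all 11153. The fit was tested on simulated data. Single values were compared with exact permutation tests in scipy 1.17.1. The members and lists were chosen with earlier results of these data known. Values per library are given for the 8 largest called rises and falls and for the pairs, and in each partner list the largest rise and fall are named. The values per library of DDX3X, DDX6 and DDX58, the tests of DDX53 and DDX60 without a filter, and the values of APOLD1, EIF4A2, EIF4A3 and IFIH1 were added after the data were seen. Alternatives were pseudocounts of 0.1 and 5, no filter or a mean of 5 FPKM, median-of-ratios, TPM and quantile scaling, a replicate block, other limma settings, each library left out, and limma-voom on recovered reads. Promoters came from RefSeq (GRCh38.p14) and words of 50 bases from GENCODE v29 transcripts, which may not be the authors' annotation.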

Additional observations from a re-analysis of the deposited data

How the results depend on the processing

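Of the called members, 26 higher and 6 lower ones kept direction and call in all alternatives that could be run for them, and 1 higher and 6 lower ones did not. Members called lower were 6 with median-of-ratios scaling, 7 with TPM and 10 with quantile normalization, against 12. The median difference of tested members was 0.31 with median-of-ratios scaling and 0.16 with a pseudocount of 5, against 0.22. Over all genes tested these medians were 0.01 and -0.04, against -0.07. With a mean of at least 5 FPKM 3246 of all genes were called lower, against 5007, since fewer genes were tested. Leaving out 1 library gave 26 to 28 members higher and 9 to 11 lower, medians of 0.19 to 0.23, 3951 to 3994 genes higher and 4831 to 4982 lower in all. The summed level ratio stayed at 1.20 in these runs, but it was 1.28 with median-of-ratios scaling and 1.23 with TPM. With 1 library left out, the log2 ratio changes were 0.90 to 0.96 for DDX5 to DDX17 and 0.68 to 0.80 for DDX21 to DDX50. For DDX19A to DDX19B they were -0.30 to -0.26.

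Differences that changed sign were DDX10 (0.01), DDX42 (0.01), DHX8 (0.02) and DHX9 (0.01) with median-of-ratios scaling, and DDX18 (-0.04), DDX58 (0.06), DDX59 (0.01) and DHX8 (0.04) with quantile normalization. Leaving out 1 library also changed the sign of 3 members without a call, DDX18 (-0.01 to 0.02, with -0.01 or -0.00 without DMSO replicate 2 or 3 or carfilzomib replicate 2), DHX35 (-0.00 to 0.16) and DHX40 (-0.03 to 0.08), the latter both lowest without DMSO replicate 1. The cause was not tested.

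Deviations from the group means of same-numbered libraries correlated with r of -0.0121, -0.00341 and 0.0126 across genes, so the numbers were not taken as pairs. With the replicate number as a block, 27 members were higher and 10 lower. Counting error limits DDX53, DDX60 and DDX3ILA1, and the filter of 1 FPKM keeps them out of the counts.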

Other observations

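Hyphenated rows with a helicase name were left out of the members. DDX11-AS1, listed as an antisense transcript of DDX11, had 0.927, 1.39 and 1.38 FPKM with DMSO and 0.603, 0.449 and 0.604 with carfilzomib, from 35 to 112 reads in a library, and its groups did not overlap. DDX19A-DT had 41 to 83 reads with DMSO and 41 to 53 with carfilzomib, and DDX59-AS1 had 0 to 11 reads over all libraries. They lie under the filter or near it and are given as values.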
